A study of Sus scrofa with 2 samples.

Results

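The 7 neuronal adhesion genes NRXN3, NLGN1, MDGA2, CADM2, CNTN1, CNTN3 and ADGRB3 were followed, by their symbols among the 31908 genes of the count matrices, in nuclei sequenced singly from the pancreas of 2 Bama pigs. One pig was wild-type (WT). The other was a PIGinH11 pig, which carries GIPRdn (a dominant-negative receptor of the hormone GIP), hIAPP (human islet amyloid polypeptide) and PNPLA3I148M (a variant of a lipid droplet protein) at the H11 locus under promoters specific to beta cells or liver. Both pigs had the control diet until 6 months and a diet high in fat and sugar for the next 12 months, and were 18 months old. Each group therefore has 1 library from 1 animal and 1 piece of tissue. No test between the groups could be made and no p-value is given. Intervals of levels and ratios cover counting error only, not the spread between nuclei or animals. Those of shares of nuclei take the nuclei of 1 animal as independent draws, and do not cover the spread between animals. Differences between classes of nuclei are likewise descriptions, read against rules of size.

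Neurexins are adhesion proteins of the presynaptic membrane, and neuroligins are their partners across the synaptic cleft. MDGA proteins bind neuroligins and block this contact. The CADM proteins, also called SynCAMs, and the contactins carry immunoglobulin domains, and ADGRB3, also called BAI3, is an adhesion G protein-coupled receptor that binds C1q-like proteins. Islet endocrine cells share much of the exocytosis machinery of neurons, and neurexins and neuroligins are known in beta cells. Schwann cells, the glia of peripheral nerves, accompany the nerve fibres of the pancreas.

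Filtering kept 11854 nuclei of WT and 13126 of PIGinH11. Clustering was done without the 7 genes and without 71 related adhesion genes, and clusters were named from other markers, so that no class rests on the genes described. The WT and PIGinH11 libraries held 72 and 83 alpha-like nuclei, 133 and 135 beta-like, 25 and 63 delta-like, 6 and 43 gamma-like and 31 and 54 Schwann-like nuclei, beside 8789 and 9166 acinar-like and 2152 and 2192 ductal-like nuclei. The median depth of the acinar-like nuclei was 2876 UMIs (unique molecules) in WT and 1196 in PIGinH11, and that of the named endocrine nuclei 3736 and 1961. Each hormone was highest in its own class, with GCG at 3912 and 3165 CPM (UMIs per 1000000 UMIs of the class) in alpha-like nuclei and INS at 8265 and 5122 in beta-like nuclei. However, INS also reached 1207 CPM in the gamma-like nuclei of PIGinH11, against 84.0 in those of WT. All 10 alpha and all 7 delta markers had UMIs in their own class in both libraries. Of the 12 beta markers, IAPP was at 0 in beta-like nuclei of both libraries and MAFA in those of WT. Of the 7 gamma markers, AQP3 was at 0 in gamma-like nuclei of both libraries. The summed level of 10 acinar markers was 6860 to 9604 CPM in the 4 endocrine classes of WT and 2502 to 7926 in those of PIGinH11, against 41638 and 34143 in acinar-like nuclei. Of the 8 Schwann markers measured, 7 had UMIs in Schwann-like nuclei of both libraries and FOXD3 was at 0. CDH19, a cadherin of Schwann cells, was at 2332 and 1730 CPM there and at 0.889 and 2.30 in acinar-like nuclei. The part of acinar RNA in the results was not tested.

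The rare named endocrine nuclei held a larger share of the UMIs of each of the 7 genes than of the nuclei. A further 43 endocrine nuclei of WT and 242 of PIGinH11 were left unnamed and are not in these shares. The named ones held most of the UMIs in both libraries only for CADM2, CNTN1 and ADGRB3. The named endocrine nuclei made up 1.99% of nuclei in WT and 2.47% in PIGinH11, and they held 75.8% and 74.5% of all CADM2 UMIs, 78.2% and 65.5% of those of CNTN1, and 72.8% and 53.3% of those of ADGRB3. By contrast, they held 25.5% and 22.6% of the CNTN3 UMIs and 26.4% and 24.5% of the MDGA2 UMIs. For NLGN1 their share was 45.3% and 40.2% of 758 and 920 UMIs, and the largest unnamed endocrine cluster held 62 and 81 more. For NRXN3 the share of the named endocrine nuclei was 47.5% and 32.2%, against 38.3% and 41.7% in acinar-like nuclei. Acinar-like nuclei held 61.4% and 59.8% of the CNTN3 UMIs and 52.8% and 42.9% of those of MDGA2, but 10.2% and 11.4% of those of CADM2.

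**Figure D1:**
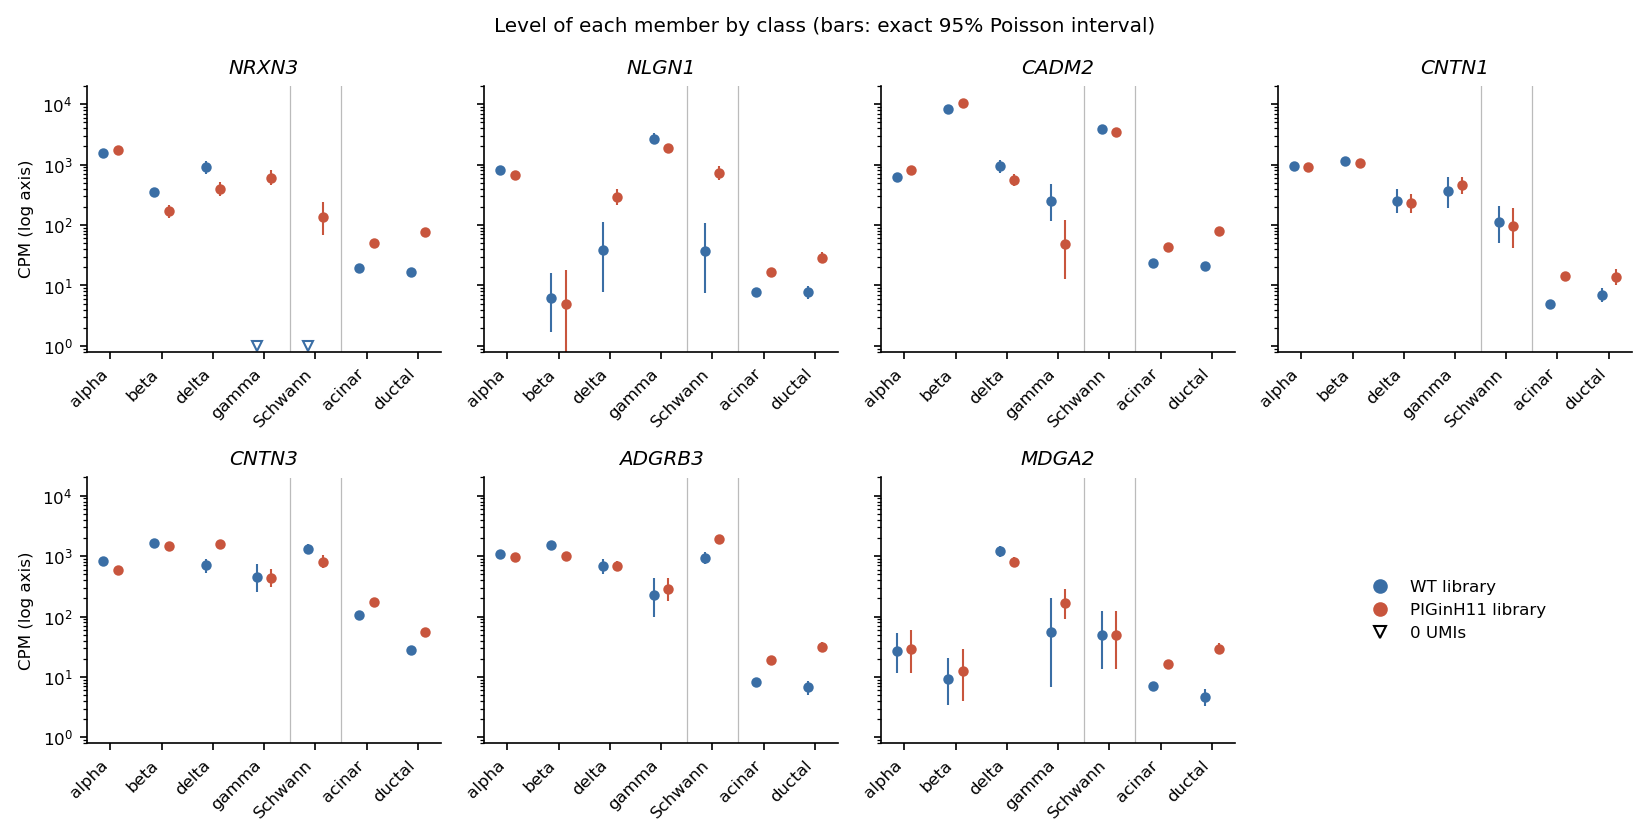
Level of each of the 7 genes in CPM on a log axis (vertical) in 7 classes of nuclei (horizontal), for the WT and the PIGinH11 library. Points are UMI sums per class and bars are exact 95% Poisson intervals. Open triangles mark classes with 0 UMIs. NRXN3 is highest in alpha-like, CADM2 in beta-like, MDGA2 in delta-like and NLGN1 in gamma-like nuclei of both libraries.

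NRXN3 encodes a neurexin, and lies on chromosome 7 from 101132780 to 102779809 (Sscrofa11.1, by RefSeq). Its level was highest in alpha-like nuclei, at 1583 CPM in WT (95% interval 1442 to 1734) and 1770 CPM in PIGinH11 (1607 to 1945). In delta-like nuclei it was 904 and 396 CPM, and in beta-like nuclei 347 and 169 CPM. Thus the alpha-like level was 4.55 times (WT) and 10.4 times (PIGinH11) the beta-like level. Gamma-like nuclei had 0 NRXN3 UMIs in the 6 WT nuclei, which allows up to 84.0 CPM, and 610 CPM in PIGinH11. In order of level, delta-like, gamma-like and beta-like nuclei overlapped their neighbours between the libraries, and alpha-like nuclei did not. Schwann-like nuclei had 0 UMIs in WT (up to 36.8 CPM) and 135 CPM in PIGinH11. Acinar-like nuclei were at 19.3 and 50.7 CPM and ductal-like nuclei at 16.7 and 78.1 CPM.

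NLGN1 encodes a neuroligin (chromosome 13, 111851007 to 112727202). It was highest in gamma-like nuclei, at 2688 CPM in WT (2177 to 3282) and 1901 CPM in PIGinH11 (1617 to 2220). The WT value rests on 96 UMIs in 6 nuclei, and 38.5% of these UMIs were in 1 nucleus. Alpha-like nuclei followed at 821 and 673 CPM, and the gamma-like level exceeded this by 3.29 times (interval 2.56 to 4.17) in WT and 2.83 times (2.26 to 3.53) in PIGinH11. Delta-like nuclei were at 38.2 CPM (3 UMIs) in WT and 291 CPM in PIGinH11. Beta-like nuclei were near 0, with 4 UMIs in 133 WT nuclei (6.26 CPM) and 2 UMIs in 135 PIGinH11 nuclei (4.97 CPM), no higher than acinar-like nuclei at 7.81 and 16.9 CPM. The log2 ratio of alpha-like over beta-like nuclei was 6.87 in WT (5.66 to 8.92) and 6.76 in PIGinH11 (5.21 to 10.14). NLGN1 thereby separated alpha-like and gamma-like from beta-like nuclei in both libraries. In Schwann-like nuclei it was 36.8 CPM (3 UMIs) in WT and 736 CPM (60 UMIs) in PIGinH11.

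MDGA2, of the neuroligin-binding MDGA proteins, lies on chromosome 1 (176770045 to 177595012) and marked delta-like nuclei. Its level there was 1197 CPM in WT (967 to 1465) and 800 CPM in PIGinH11 (663 to 955). The next class was gamma-like in both libraries, with 56.0 CPM (2 UMIs) in WT and 167 CPM in PIGinH11. Delta-like nuclei exceeded gamma-like nuclei by a log2 ratio of 4.10 in WT (2.52 to 7.48) and 2.21 in PIGinH11 (1.45 to 3.17). Alpha-like nuclei were at 27.4 and 28.5 CPM, beta-like nuclei at 9.39 and 12.4 CPM, and Schwann-like nuclei at 49.1 CPM in both. All other named classes lay between 0 and 39.2 CPM. In both libraries the neuroligin NLGN1 and its inhibitor MDGA2 thus had their highest endocrine levels in different classes.

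CADM2 encodes a SynCAM (chromosome 13, 169681947 to 170753114). In beta-like nuclei it was at 8316 CPM in WT (8094 to 8543) and 10387 CPM in PIGinH11 (10075 to 10707). Schwann-like nuclei came second at 3904 and 3424 CPM, and the values of these classes did not overlap. The other endocrine classes were far lower. Alpha-like nuclei were at 612 and 807 CPM, delta-like nuclei at 942 and 562 CPM and gamma-like nuclei at 252 CPM (9 UMIs, all in 1 nucleus) and 47.8 CPM (4 UMIs). Beta-like nuclei exceeded alpha-like nuclei 13.5 times and 12.8 times, and delta-like nuclei 8.77 times and 18.4 times. Delta-like nuclei were above alpha-like nuclei in WT and below them in PIGinH11. Acinar-like nuclei were at 23.8 and 43.9 CPM.

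The level of CADM2 was spread over nearly all beta-like nuclei. Per 10000 UMIs of a nucleus, beta-like nuclei had a lowest value of 0, a median of 74.6 and a highest value of 240 UMIs in WT, and 0, 82.6 and 280 in PIGinH11. The nucleus with the most CADM2 UMIs held 4.31% and 5.78% of those of the class. For NRXN3 in alpha-like nuclei the medians were 11.3 and 9.28 and the highest values 45.3 and 73.4.

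Of the contactins, CNTN1 (chromosome 5, 72168496 to 72495454) did not separate beta-like from alpha-like nuclei. Its level was 1127 and 1068 CPM in beta-like and 961 and 918 CPM in alpha-like nuclei, a ratio of 1.17 in WT (1.02 to 1.35) and 1.16 in PIGinH11 (0.988 to 1.37). Gamma-like nuclei followed at 364 and 454 CPM and delta-like nuclei at 255 and 231 CPM. Beta-like nuclei thus exceeded delta-like nuclei 4.32 times and 4.56 times. The order beta, alpha, gamma, delta was the same in both libraries. Schwann-like nuclei were lower, at 110 and 98.2 CPM, and acinar-like nuclei were at 4.98 and 14.5 CPM.

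CNTN3 (chromosome 13, 55648491 to 56018887) had the lowest ratio of its highest endocrine class over acinar-like nuclei among the 7 genes, at 15.7 in WT and 9.15 in PIGinH11. In WT it was highest in beta-like nuclei at 1643 CPM (1545 to 1745), with delta-like nuclei at 700 CPM (528 to 912). In PIGinH11 the delta-like level was 1579 CPM (1385 to 1793) and the beta-like level 1490 CPM (1373 to 1614), and these intervals overlapped. It was the only member whose highest named endocrine class differed between the libraries. Schwann-like nuclei were at 1301 and 810 CPM, alpha-like nuclei at 831 and 583 CPM and gamma-like nuclei at 448 and 442 CPM. Outside the islet, endothelial-like nuclei had 152 and 274 CPM and acinar-like nuclei 104 and 173 CPM, against 27.5 and 56.4 CPM in ductal-like nuclei. The acinar-like level was 6.36% and 10.9% of the highest endocrine level.

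ADGRB3 (chromosome 1, 48885885 to 49619783) was shared by beta-like nuclei, at 1502 and 1005 CPM, and alpha-like nuclei, at 1081 and 950 CPM. In PIGinH11 the ratio of beta-like over alpha-like nuclei was 1.06 (0.898 to 1.25), and in WT it was 1.39 (1.22 to 1.58). Delta-like nuclei were at 675 and 687 CPM and gamma-like nuclei at 224 and 287 CPM. Schwann-like nuclei were at 933 CPM (735 to 1168) in WT and 1902 CPM (1615 to 2226) in PIGinH11, where they exceeded every endocrine class. Of the WT Schwann-like UMIs, 39.5% were in 1 nucleus. The receptor was at 8.16 and 19.0 CPM in acinar-like nuclei.

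To count how often the genes separate endocrine classes, each of the 6 pairs of classes was compared, and a member was counted when it differed at least 4-fold the same way in both libraries and had at least 40 UMIs. Of 39 comparisons, 12 met this rule. For alpha-like against beta-like nuclei these were 3 of 6 members (NRXN3, NLGN1 and CADM2), where 5.1% of all genes compared met the rule. For beta-like against delta-like nuclei 4 of 7 members (NLGN1, CADM2, CNTN1 and MDGA2) met it, against 4.05% of all genes. For NLGN1 the WT values behind this were 4 and 3 UMIs, and the interval of their ratio includes equal levels. MDGA2 alone of 7 met it for alpha-like against delta-like nuclei (4.7% of all genes). Against gamma-like nuclei, NLGN1 and CADM2 of 6 members met it for beta-like nuclei (4.3%), NLGN1 and MDGA2 of 7 for delta-like nuclei (4.51%), and 0 of 6 for alpha-like nuclei (2.73%). These shares describe genes that were listed with their pattern in these data known.

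Shares of nuclei with at least 1 UMI were compared at equal depth, with each nucleus thinned to 500 UMIs. No nucleus was left out by this step. CADM2 was found in 93.2% of WT and 94.1% of PIGinH11 beta-like nuclei (97.7% and 97.8% before thinning) and in 74.2% and 63.0% of Schwann-like nuclei, against 2.15% and 3.36% of acinar-like nuclei. Alpha-like nuclei had NRXN3 in 51.4% and 43.4%, against 1.47% and 3.91% of acinar-like nuclei. NLGN1 was found in 50.0% (11.8% to 88.2%) and 60.5% (44.4% to 75.0%) of gamma-like nuclei, against 0.592% and 1.47%. Beta-like nuclei had NLGN1 in 0.752% (0.0190% to 4.12%) and 0.741% (0.0187% to 4.06%), from 1 nucleus in each library, and these intervals include the acinar-like shares. MDGA2 was found in 48.0% and 27.0% of delta-like nuclei, against 0.762% and 1.36%. For all 6 members with the same highest endocrine class in both libraries, the share in that class exceeded the acinar-like share, with intervals that did not overlap. That class was chosen as the highest from the same counts, which favoured an excess in advance. The 6 are therefore a description, and the share over all genes was not counted. CNTN3 was left out of the 6 only because its highest class differed between the libraries. It was found in 53.4% (44.5% to 62.1%) of WT and 43.0% (34.5% to 51.8%) of PIGinH11 beta-like nuclei, and in 55.6% of PIGinH11 delta-like nuclei. The acinar-like shares were 5.09% (4.64% to 5.57%) and 7.71% (7.18% to 8.28%).

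**Figure D2:**
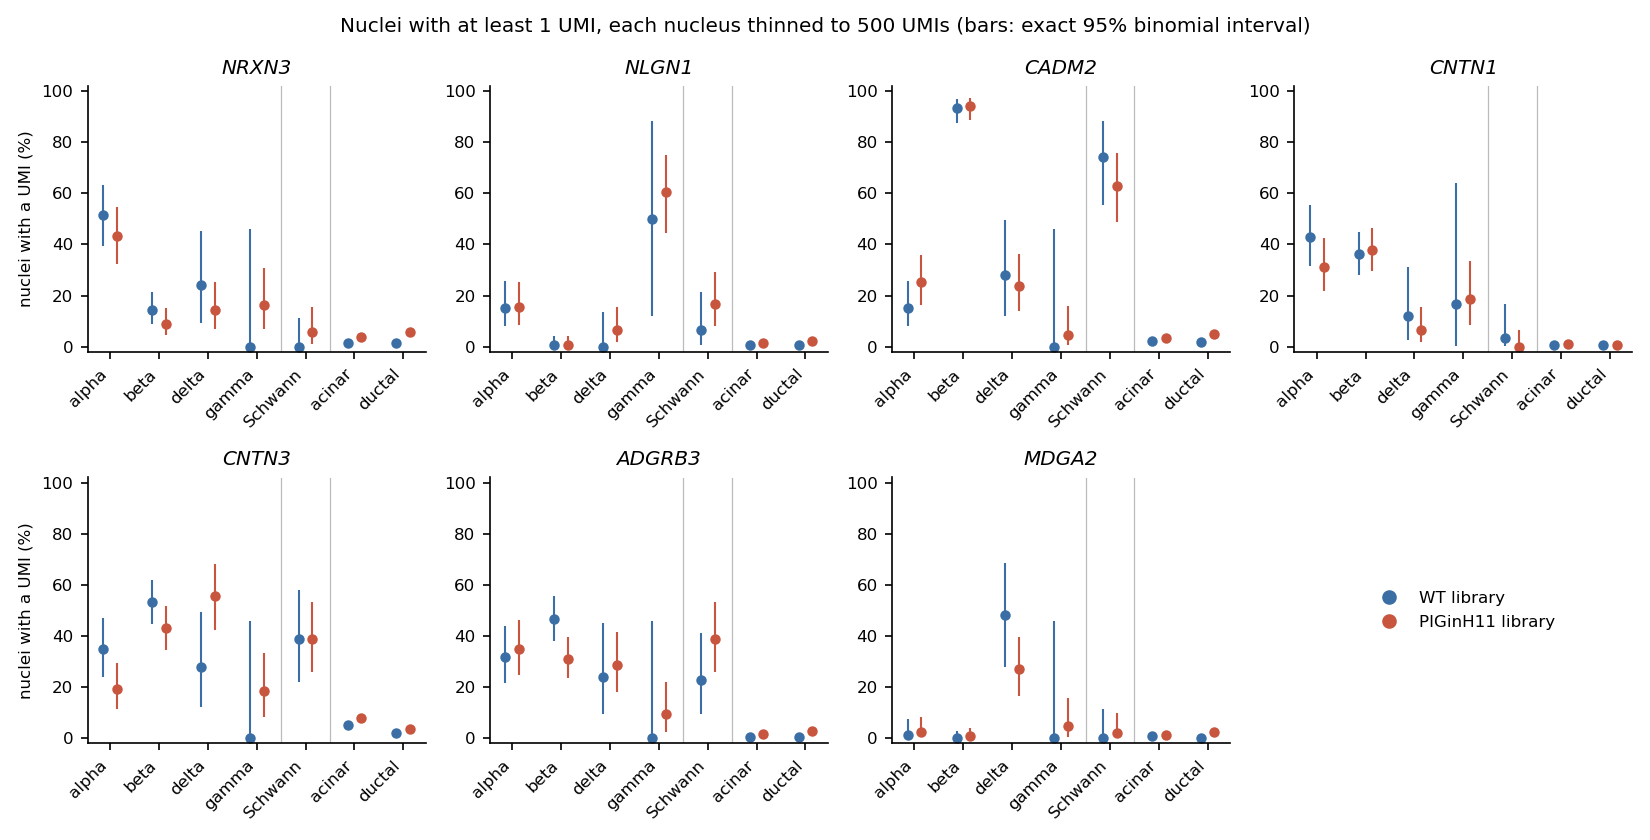
Share of nuclei with at least 1 UMI of each gene in percent (vertical) in 7 classes (horizontal), with each nucleus thinned to 500 UMIs. Points are the WT and the PIGinH11 library and bars exact 95% binomial (Clopper–Pearson) intervals. CADM2 stands at 93.2% and 94.1% in beta-like nuclei, and the wide bars of WT gamma-like nuclei reflect 6 nuclei.

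Several members were often found in the same nucleus. At 500 UMIs, 85.7% of WT and 78.5% of PIGinH11 beta-like nuclei had UMIs of at least 2 of the 7 genes. This share was 63.9% and 50.6% in alpha-like, 52.0% and 50.8% in delta-like and 41.9% and 61.1% in Schwann-like nuclei. In gamma-like nuclei it was 0 of 6 in WT, which allows up to 45.9% by the exact interval, and 34.9% in PIGinH11. In acinar-like nuclei it was 0.580% and 1.92%, and 89.5% and 81.6% of them had none. The largest unnamed endocrine cluster, with 38 WT and 159 PIGinH11 nuclei and acinar markers at 22491 and 23054 CPM, lay between these groups at 28.9% and 15.7%. There, CADM2 was at 2605 and 628 CPM and NRXN3 at 526 and 415 CPM.

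**Figure D3:**
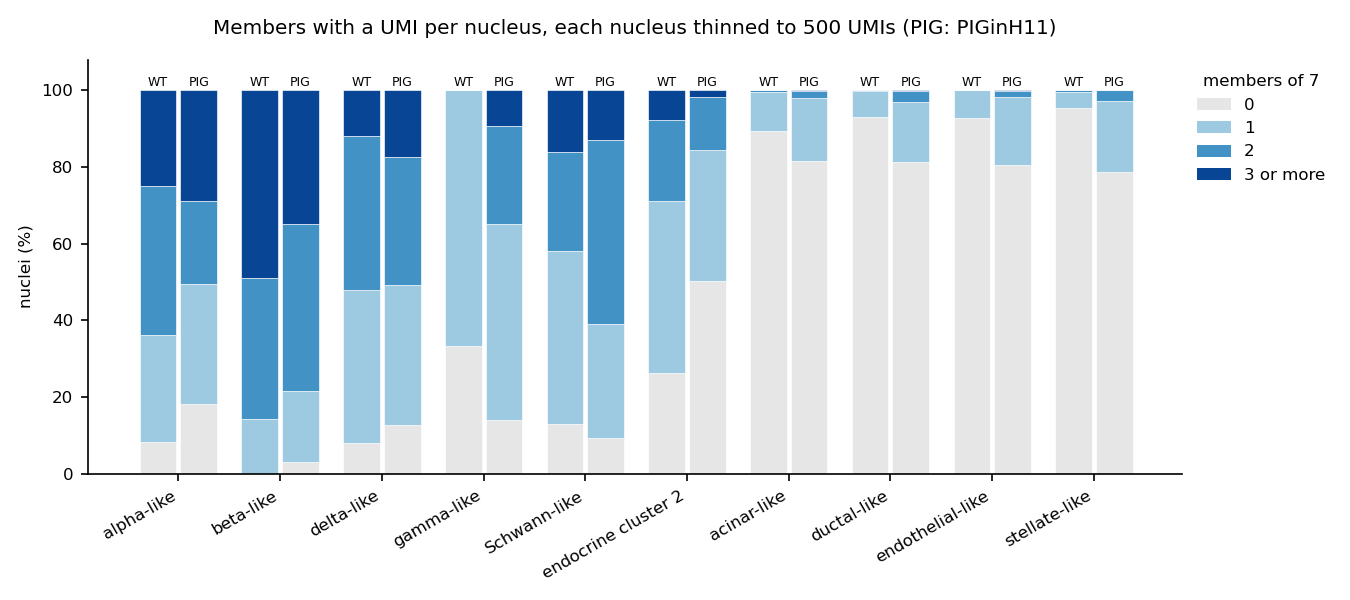
Share of nuclei in percent (vertical) with 0, 1, 2 or 3 or more of the 7 genes found, by class and library (horizontal), with each nucleus thinned to 500 UMIs. Beta-like nuclei have none of the genes in 0% of WT and 2.96% of PIGinH11 nuclei, and acinar-like nuclei in 89.5% and 81.6%.

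For a background, the level in exocrine nuclei was set against that of the hormones, which acinar cells do not make. The acinar-like level of INS was 2.77% (WT) and 1.92% (PIGinH11) of its beta-like level, and that of GCG was 0.591% and 0.532% of its alpha-like level. CADM2 was at 0.286% and 0.423% of its beta-like level, below INS in both libraries. NRXN3 was at 1.22% and 2.86% of its alpha-like level, above GCG in both libraries. MDGA2 was at 0.583% and 2.06% of its delta-like level, where SST was at 0.107% and 0.176%. CNTN1 (0.442% and 1.36%) and ADGRB3 (0.543% and 1.89% of their beta-like levels) were also below INS in both libraries. NLGN1 was at 0.290% and 0.892% of its gamma-like level, where PPY was at 0.0961% and 0.282%. CNTN3 was above the hormone of its highest class in both libraries. The part of free endocrine RNA in these levels was not tested.

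Between the libraries, the members were compared within acinar-like, ductal-like, Schwann-like and the 4 endocrine classes, in the 40 of 49 pairs of member and class with at least 40 UMIs. Of these, 18 differed at least 2-fold, 16 of them higher in PIGinH11 and 2 lower. The minimum was set on the UMIs of both libraries together. Among the 16, some pairs reached it only through PIGinH11, where they were high. These were NLGN1 in delta-like (3 and 44 UMIs) and Schwann-like nuclei (3 and 60) and NRXN3 in gamma-like nuclei (0 and 51). Among these classes, the differences lay mainly outside the islet, as the plot of ratios by class shows. Endothelial-like and stellate-like nuclei were not in this count. With at least 40 UMIs, the endothelial-like log2 ratios, PIGinH11 over WT, were 2.28 (NRXN3), 1.57 (CADM2), 0.85 (MDGA2) and 0.84 (CNTN3). The stellate-like ratios were 1.17 (CADM2) and 0.68 (CNTN3). For these 2 classes the share of all genes past 2-fold was not counted. Over all genes compared, the share past 2-fold also differed by class. It was 21.8% in acinar-like, 15.2% in ductal-like and 14.6% in Schwann-like nuclei. In alpha-like, beta-like, delta-like and gamma-like nuclei it was 7.77%, 8.02%, 13.1% and 16.7%.

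In ductal-like nuclei, 6 of 7 members were at least 2-fold higher in PIGinH11, where 12.3% of all genes compared were (15.2% past 2-fold in either direction). The log2 ratios, PIGinH11 over WT, ran from 1.00 for CNTN1, just below the rule, to 2.66 for MDGA2 (2.12 to 3.24). CNTN3, at 1.03 (0.75 to 1.32), was within 2-fold under 4 alternatives. With the acinar-like level per nucleus subtracted as free RNA, NLGN1 alone kept UMIs in both libraries, with a log2 ratio of 3.78. In WT, fewer NLGN1 UMIs were left than the 10 that 1 ductal-like nucleus held before the subtraction. NRXN3, CADM2, ADGRB3 and MDGA2 had none left in WT, CNTN1 none in PIGinH11 and CNTN3 none in either. The values of the first 4 (7.44 to 9.08), CNTN1 (-4.09) and CNTN3 (1.38) thus rest on the UMIs added for ratios. They do not measure the size of a difference. In acinar-like nuclei, 5 of 7 members were at least 2-fold higher, against 19% of all genes (21.8% in either direction), with log2 ratios from 0.73 for CNTN3 to 1.54 for CNTN1 (1.24 to 1.85). With median-of-ratios scaling only 2 of 7 were, NRXN3 and CNTN1, as NLGN1 (0.85), ADGRB3 (0.95) and MDGA2 (0.96) were then below 2-fold. These are ratios of low levels, with no member above 80.8 CPM in ductal-like nuclei. Of the acinar-like levels, CNTN3 alone was above 50.7 CPM. The median over all genes was 0.27 in acinar-like and 0.14 in ductal-like nuclei. All 7 members are long genes, from 327 kb (CNTN1) to 1647 kb (NRXN3). Among genes with a symbol, those over 300 kb had a median log2 ratio of 0.63 in acinar-like (633 genes) and 0.70 in ductal-like nuclei (623 genes), and those under 50 kb 0.19 and 0.08. Of the genes over 300 kb, 36.2% were at least 2-fold higher in acinar-like and 42.7% in ductal-like nuclei, which is the nearer background for the members. The part of gene length, and of the lower depth of the PIGinH11 library, in these ratios was not tested. Among the hormones, INS in acinar-like nuclei was at 229 CPM in WT and 98.1 CPM in PIGinH11 and GCG at 23.1 and 16.8 CPM, while SST was at 2.32 and 3.97 CPM and PPY at 6.19 and 9.59 CPM. In ductal-like nuclei INS was at 162 and 104 CPM, GCG at 18.0 and 19.0 CPM, SST at 1.74 and 3.02 CPM and PPY at 2.79 and 11.8 CPM. The part of free endocrine RNA was not tested by these values.

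**Figure D4:**
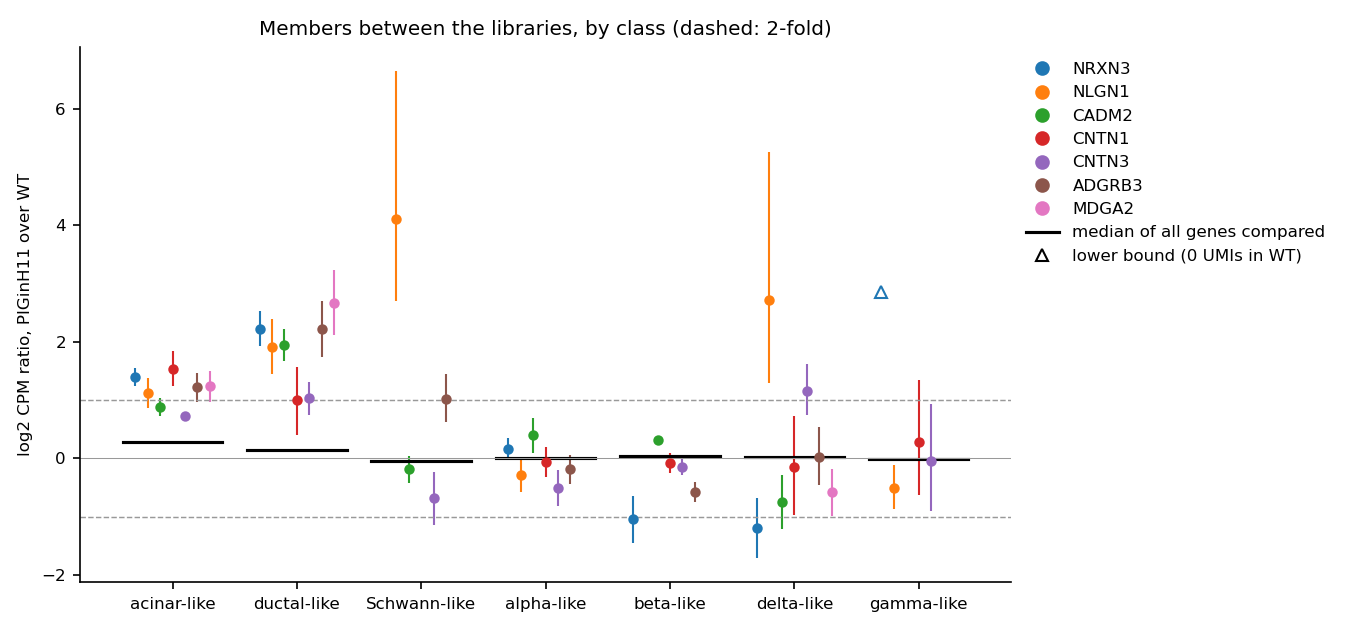
Log2 ratio of CPM, PIGinH11 over WT (vertical), of the members with at least 40 UMIs in 7 classes (horizontal). Points are members with exact 95% intervals, black lines the median of all genes compared in the class, and dashed lines 2-fold. The open triangle, labelled a lower bound, is the ratio with 3 UMIs taken for the 0 UMIs of WT. The exact interval of that ratio begins lower, at 2.51. Both exocrine classes have all 7 members above the median, and the alpha-like values lie between -0.51 and 0.40.

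In alpha-like nuclei, 0 of 6 members passed 2-fold, against 7.77% of all genes, and the log2 ratios lay between -0.51 (CNTN3) and 0.40 (CADM2). NRXN3, highest in this class, had a ratio of 0.16 (-0.03 to 0.35). In beta-like nuclei, 1 of 5 passed, against 8.02% of all genes. This was NRXN3, with a log2 ratio of -1.03 (-1.45 to -0.64) from 222 and 68 UMIs. It was within 2-fold under 4 alternatives, between -0.97 and -0.88. CADM2 was 0.32 (0.26 to 0.38) higher in PIGinH11, and ADGRB3 lower by a ratio of -0.58 (-0.75 to -0.41), both within 2-fold.

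In delta-like nuclei, 3 of 7 members passed 2-fold, against 13.1% of all genes. NRXN3 had a log2 ratio of -1.19 (-1.71 to -0.67), CNTN3 of 1.16 (0.74 to 1.62) and NLGN1 of 2.72 (1.29 to 5.26), the last from 3 UMIs in WT. MDGA2 was within 2-fold at -0.58 (-0.98 to -0.18). In gamma-like nuclei, 1 of 4 passed, against 16.7% of all genes. NRXN3 was 7.26-fold higher in PIGinH11 with 3 UMIs taken for the 0 UMIs of the 6 WT nuclei. For NRXN3 the exact interval of the fold began at 5.69. When endocrine nuclei were assigned by hormone instead, which gave 13 WT gamma nuclei, its log2 ratio was 1.37, and with nuclei thinned to 500 UMIs it was 1.07.

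In Schwann-like nuclei, 2 of 4 members passed, against 14.6% of all genes. NLGN1 had a log2 ratio of 4.11 (2.71 to 6.64), from 3 UMIs in WT and 60 in PIGinH11, of which 31.7% were in 1 nucleus. ADGRB3 had a ratio of 1.02 (0.62 to 1.44). It was below 2-fold under 4 alternatives, with a lowest value of 0.69 at 500 UMIs per nucleus. Of the hormones in the same nuclei, GCG was at 12.3 and 135 CPM, PPY at 12.3 and 73.6 CPM, INS at 331 and 73.6 CPM and SST at 0 in both, and the part of endocrine RNA in these ratios was not tested. CADM2 and CNTN3 lay within 2-fold at -0.19 and -0.68. With each nucleus thinned to 500 UMIs, the ratio of NLGN1 was 1.74. The second clustering left 15 WT and 78 PIGinH11 nuclei of the Schwann cluster unnamed, since acinar or ductal markers fitted them best. There, NLGN1 was lower in PIGinH11, at 184 and 80.5 CPM (12 and 6 UMIs). ADGRB3 was also lower in them, at 967 and 80.5 CPM, with 57 of its 63 WT UMIs in 1 nucleus. Both calls thus depend on which nuclei were named. The Schwann-like cluster could not be named under 3 of the 16 alternative settings, so that its values rest on the clustering used.

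To place the members among their relatives, 71 paralogs, ligands, receptors and partners were listed, of which 66 are in the matrices. With all named endocrine nuclei summed, 19 of the 49 list genes with at least 40 UMIs were at least 4-fold higher than in acinar-like nuclei in both libraries, against 8.99% of all genes compared. All 7 members met this rule. Since the members and the list were chosen with earlier results of these data known, these counts are descriptions only. A share over genes of like length was not counted. The median log2 ratio over the list was 1.41 in WT and 1.23 in PIGinH11, against 0.14 and 0.01 over all genes. Of the 19, 14 had the same highest endocrine class in both libraries, a share that was not counted over all genes.

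The list genes with the largest folds came from several families of adhesion proteins. The IgLON proteins, small adhesion proteins on a lipid anchor, were led by LSAMP, which was 237-fold and 97.5-fold higher and had its highest level in alpha-like nuclei. OPCML (131-fold and 54.7-fold) and NEGR1 (122-fold and 53.7-fold) followed. Of the contactins, CNTN4 was 98.2-fold and 32.8-fold higher and, of the endocrine classes, highest in beta-like nuclei at 1122 and 789 CPM, below the 4689 and 2049 CPM of Schwann-like nuclei, and CNTN5 46.0-fold and 32.8-fold with its highest level in alpha-like nuclei. MDGA1, the paralog of MDGA2, was 96.3-fold and 29.3-fold higher. Its highest level was 76.7 and 81.9 CPM in beta-like nuclei, where MDGA2 was at 9.39 and 12.4 CPM. MDGA1 lay between 28.0 and 52.9 CPM in the other endocrine classes. Further genes were CADM3 (34.2-fold and 69.5-fold, from 46 UMIs), PTPRD (112-fold and 24.1-fold), a receptor phosphatase, NCAM1 (85.1-fold and 27.3-fold), NFASC (42.7-fold and 29.2-fold) and TENM4 (13.9-fold and 13.2-fold), a teneurin. Of these, CADM3 and NCAM1 were higher in Schwann-like nuclei than in any endocrine class, at 233 and 135 CPM and at 1633 and 785 CPM. Of the 49 list genes compared, 13 had a log2 ratio of endocrine over acinar-like nuclei below 0 in both libraries. The share over all genes was not counted, and their median log2 ratio was 0.14 and 0.01. The count of 13 had no minimum size, and in PIGinH11 1 ratio was as near 0 as -0.0024. It also includes C1QL3 and C1QL4, which had 0 endocrine UMIs, so that a lower level cannot be told for them. ADGRB1, the paralog of ADGRB3, was at 18.2 and 27.2 CPM in endocrine and 162 and 306 CPM in acinar-like nuclei. C1QL1, C1QL2, C1QL3 and C1QL4, the C1q-like ligands of ADGRB3, had 0 UMIs in the named endocrine nuclei of both libraries. In acinar-like nuclei none was above 1.22 CPM. The limit of 3 UMIs among the 1045765 (WT) and 882992 (PIGinH11) endocrine UMIs is higher than this. The count of 0 thus cannot tell absence from a level like the acinar-like one. ADGRB1 and these ligands were named after their values were seen.

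**Figure D5:**
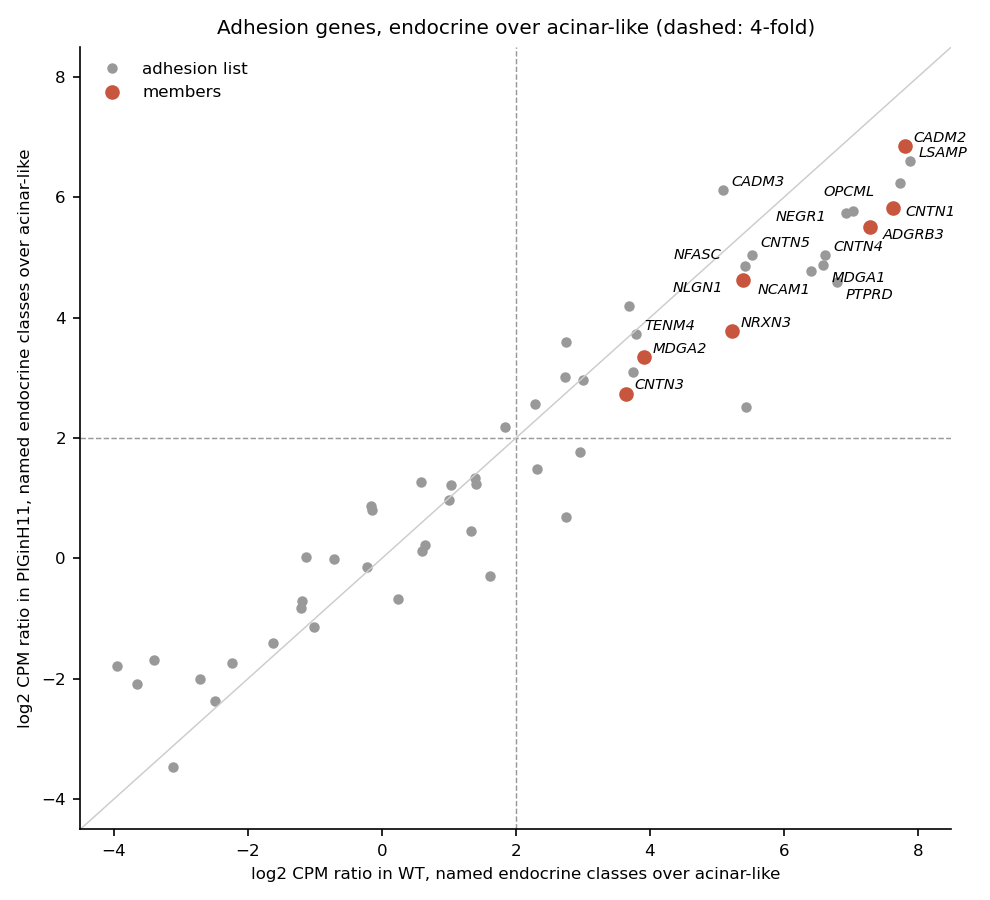
Log2 ratio of CPM of the named endocrine nuclei over acinar-like nuclei in WT (horizontal) and in PIGinH11 (vertical) for the 49 list genes (grey) and the 7 members (red) with at least 40 UMIs. Dashed lines mark 4-fold and the grey line equal ratios. All 7 members and 19 list genes lie above 4-fold in both libraries, and most of these lie below the line of equal ratios.

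Finally, the genes whose pattern was most like each member were taken by Pearson's r of log2(CPM + 5) over 24 points, which are 12 named classes in each of the libraries, among 11968 genes with a symbol and at least 100 UMIs. The points share libraries and depth, and r is a description only. NRXN3 was most like TRPA1 (0.92), an ion channel, CAMK2B (0.86), a calmodulin-dependent kinase, and GIPR (0.86), the receptor of the incretin GIP. NLGN1 was most like B3GALT1 (0.88), GPR149 (0.87) and KCNIP4 (0.86), the last a marker used to name gamma-like nuclei. MDGA2 was most like STK32A (0.82), ST6GALNAC5 (0.78) and SST (0.78), the last a marker used to name delta-like nuclei. For CADM2 the genes were ADGRB3 (0.91), DNER (0.86) and MEGF9 (0.86). CNTN1 had the closest match, with ABCC8 (0.97), the sulfonylurea receptor of the KATP channel and a marker of the endocrine class, followed by CACNA1B (0.96), a neuronal calcium channel, and SNTG1 (0.95). CNTN3 was most like CHST9 (0.88), NPAS3 (0.84) and ADGRB3 (0.83). The genes most like ADGRB3 included CNTN1 (0.92) and NCAM1 (0.92). Among the members, r was highest for CNTN1 with ADGRB3 (0.92) and lowest for NLGN1 with CADM2 (0.31). Over the 12 classes, the WT and PIGinH11 levels of a gene had an r between 0.59 (NRXN3) and 0.97 (ADGRB3).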

How the data were processed

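The deposited matrices hold raw UMI counts per gene and barcode, which the authors made with Cell Ranger on Sscrofa11.1 (3.1.0 in the submitters' processing notes, 5.0.0 in the file headers). WT had 13619 barcodes and 55784067 UMIs, PIGinH11 14964 and 26228811. Barcodes with 270 to 3700 genes, under 13000 UMIs and under 10% mitochondrial UMIs were retained, and the top 0.8% of Scrublet scores (scanpy 1.11.5) per 1000 barcodes were removed. A lower UMI limit printed in the study's methods was not used, since the median WT barcode exceeds it. Variable genes (2000, without the 7 members, the adhesion list, ribosomal and mitochondrial genes) gave 30 principal components, which were corrected with Harmony and clustered by Louvain at resolution 1 (igraph 0.11.9). Endocrine, immune and Schwann clusters were clustered again, the last 2 after the first clusters were seen. UMIs were summed in each class of a library and set against the class total, and 0.5 UMIs were added for ratios. Intervals are exact at 95% (Poisson, Clopper–Pearson, conditional binomial). A sum of 0 is given with the limit of 3 UMIs. Of the barcode sequences, 60 occur in both matrices. The ratio and interval steps were tested on simulated data. The members and lists were chosen with earlier results of these data known. The text names the 7 members, up to 12 list genes past 4-fold by the smaller fold, and the 3 genes most like each member, except for 1 gene that is not reported here. Coordinates are those of RefSeq. No sequence is shown. Cell type names may differ from those of the study, since they were rebuilt here.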

Additional observations from a re-analysis of the deposited data

Results flagged for a closer look

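NRXN3 was past 2-fold in opposite directions in different classes. The log2 ratios of NRXN3, PIGinH11 over WT, were negative for the beta-like (-1.03) and delta-like classes (-1.19). They were positive for the ductal-like (2.22), acinar-like (1.39) and gamma-like classes. With 3 UMIs taken for the 0 UMIs of the 6 WT nuclei, the gamma-like ratio was 2.86. The exact interval of that ratio began lower, at 2.51. Under alternatives the gamma-like ratio was as low as 1.07, and the beta-like ratio was within 2-fold under 4 of them (-0.97 to -0.88). The difference between the classes was not tested, since each group has 1 library.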

How the results depend on the processing

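The number of members with the same highest endocrine class in both libraries (6) was 5 to 6 over 14 alternatives. It was not counted over all genes. For CNTN1 and ADGRB3 among the 6, the PIGinH11 interval of the highest over the next class included equal levels. The number of the 6 members above the acinar-like share in their highest class (6) was 6 under 9. The list genes past 4-fold (19) were 14 to 28 over 14. The member and class pairs past 2-fold (18 of 40) were 11 to 21 over 16, and moved past 1.5 times with nuclei thinned to 500 UMIs (11 of 27 pairs). Leaving out gamma-like nuclei, the nucleus with the most UMIs of a gene, or barcode sequences found in both matrices was chosen after seeing the data. Without gamma-like nuclei, NLGN1 was highest in alpha-like nuclei. With thinning, CNTN1 was highest in alpha-like nuclei in WT. No pair past 2-fold changed sign, but CNTN1 in ductal-like nuclei, just within it, turned to -4.09 with subtraction of free RNA. That value rests on the UMIs added for ratios, since the subtraction left no PIGinH11 UMIs. The subtraction gave no value for acinar-like nuclei. Median-of-ratios scaling left 2 of 5 acinar-like calls. The causes were not tested. The Schwann-like class was missing with double the doublet rate, without Harmony and at resolution 2. No paired analysis was possible because each group has 1 library and no test was made. The small number of WT gamma-like nuclei (6) limits every value of that class.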
